A study of Mus musculus with 18 samples.

Results

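The regions described here are stretches of open chromatin that lay between genes, at a middle distance from the nearest gene, in mouse naive CD4 T cells. Peaks of 18 assays of transposase-accessible chromatin (ATAC-seq) on chromosomes 1 to 19 and X were merged into 33115 union regions wherever peaks overlapped by at least 1 bp. Of these, 5652 regions (17.1%) were centred outside every protein-coding gene of RefSeq's mm10 annotation (GRCm38.p6) with the nearest gene end 10 to 100 kb away. The rule used position alone, no signal, and each region was named by the protein-coding gene whose end was nearest, which does not show that the region acts on that gene. The labels describe wild-type C57BL6/J mice that had received no treatment. Naive CD4 T cells were sorted for low or high green fluorescence from an Nr4a1 reporter, which stands for weak or strong tonic stimulation of the T cell receptor (TCR). They came freshly from spleen, mesenteric lymph node or axillary lymph node, with 3 libraries for each of the 6 combinations of organ and reporter level and 500000 cells per library. The genotype field names no reporter allele, and the age of the mice and the markers of the sort are not given in the labels. The titles call the 3 libraries of a group biological replicates and do not tie them to separate animals. The tests below therefore weigh differences against the spread among these libraries, which may be technical.

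Open chromatin far from promoters is where enhancers are found, short stretches that bind transcription factors and can act on a promoter at a distance through looping of the DNA. In T cells, factors of the RUNX, ETS and TCF families occupy many such elements, and brief TCR signals act through others such as AP-1, NFAT, EGR and NR4A. Insulator sites bound by CTCF and promoters of long noncoding RNAs (lncRNAs) are also open and can lie outside protein-coding genes. Tonic stimulation is the weak signal that a naive T cell draws from self peptides between infections, and Nr4a1 is a gene it induces.

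Some of the regions overlapped starts of lncRNA genes, and these are the members for which sequence was at hand. A lncRNA start lay inside 180 regions (3.18%), of which 68 (37.8%) had a peak in all 18 libraries, against 665 of the other 5472 (12.2%). The windows below run from 250 bases before to 50 after the annotated start and are from RefSeq (GRCm38.p6). They were chosen after values were seen, as windows in the strongest regions or in regions that differed between groups. All are written 5′ to 3′ along the transcript, and capitals mark matches, on either strand, to the motifs named after them.
Gm29638 (chr7:12949735-12950034, + strand, in the region nearest Zfp324): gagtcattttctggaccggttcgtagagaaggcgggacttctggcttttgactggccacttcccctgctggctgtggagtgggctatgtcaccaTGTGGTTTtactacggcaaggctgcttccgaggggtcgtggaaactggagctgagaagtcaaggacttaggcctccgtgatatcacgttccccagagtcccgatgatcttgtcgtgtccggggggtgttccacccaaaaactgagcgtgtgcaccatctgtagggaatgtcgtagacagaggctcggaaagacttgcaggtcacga
Dancr (chr5:74092810-74093109, + strand, nearest Usp46): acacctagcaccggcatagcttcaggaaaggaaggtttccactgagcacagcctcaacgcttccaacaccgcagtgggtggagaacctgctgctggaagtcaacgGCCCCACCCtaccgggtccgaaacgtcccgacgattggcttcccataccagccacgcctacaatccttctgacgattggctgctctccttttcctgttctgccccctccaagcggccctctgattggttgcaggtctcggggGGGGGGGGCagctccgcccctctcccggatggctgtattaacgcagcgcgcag
Gm30771 (chr7:38061030-38061329, + strand, nearest Ccne1): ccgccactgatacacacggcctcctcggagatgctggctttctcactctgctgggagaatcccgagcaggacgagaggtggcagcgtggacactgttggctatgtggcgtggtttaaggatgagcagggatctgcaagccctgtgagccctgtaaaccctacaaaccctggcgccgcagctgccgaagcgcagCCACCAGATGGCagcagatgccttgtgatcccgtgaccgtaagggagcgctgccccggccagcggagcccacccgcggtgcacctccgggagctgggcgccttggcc
Gm30684 (chr7:38061311-38061610, - strand, nearest Ccne1): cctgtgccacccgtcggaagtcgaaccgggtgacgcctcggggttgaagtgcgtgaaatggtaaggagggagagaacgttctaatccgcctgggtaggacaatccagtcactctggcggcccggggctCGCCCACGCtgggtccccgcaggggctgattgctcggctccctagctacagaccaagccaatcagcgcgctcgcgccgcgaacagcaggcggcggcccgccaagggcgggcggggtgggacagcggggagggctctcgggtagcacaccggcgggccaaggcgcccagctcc
Gm51814 (chr10:19062529-19062828, + strand, nearest Tnfaip3): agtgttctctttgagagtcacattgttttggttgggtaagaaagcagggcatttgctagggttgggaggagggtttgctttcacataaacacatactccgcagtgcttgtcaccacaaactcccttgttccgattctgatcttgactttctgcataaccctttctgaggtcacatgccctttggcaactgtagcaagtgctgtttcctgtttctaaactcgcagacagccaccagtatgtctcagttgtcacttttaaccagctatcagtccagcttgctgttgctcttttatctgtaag
Gm13982 (chr2:117417648-117417947, - strand, nearest Rasgrp1): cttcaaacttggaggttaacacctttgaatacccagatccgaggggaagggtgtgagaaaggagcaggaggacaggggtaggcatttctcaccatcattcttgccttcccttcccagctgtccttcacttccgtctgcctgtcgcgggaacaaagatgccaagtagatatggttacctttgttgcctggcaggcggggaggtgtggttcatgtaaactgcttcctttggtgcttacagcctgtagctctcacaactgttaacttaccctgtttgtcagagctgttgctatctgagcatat
1700064M15Rik (chr12:99627925-99628224, - strand, nearest Efcab11): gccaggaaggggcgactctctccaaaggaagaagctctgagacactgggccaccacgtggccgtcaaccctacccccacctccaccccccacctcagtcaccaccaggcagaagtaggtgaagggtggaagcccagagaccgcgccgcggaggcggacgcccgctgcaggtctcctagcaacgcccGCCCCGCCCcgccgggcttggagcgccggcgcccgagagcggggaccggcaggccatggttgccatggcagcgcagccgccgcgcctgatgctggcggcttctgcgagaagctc

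The Gm29638 window held a RUNX match (TGTGGTTT), and 291 of its 300 bases lay in the region with the highest signal of all members present in every library. Dancr held 2 matches to a KLF/SP motif (GGGNGGGGC) and 1700064M15Rik held 1. Gm30771 and Gm30684 start inside a single region nearest Ccne1, on opposite strands and facing each other, and their windows overlap at chr7:38061311-38061329. The first held a match to the CTCF core motif and the second an EGR match (GCGTGGGCG). Gm51814 and Gm13982 held none of the 11 motifs searched, which says only that these letters are not in these windows. GC content was 69.3% in Gm30684 and 70.7% in 1700064M15Rik, but 45.3% in Gm51814.

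GC content and motifs were counted in 1 window per region, that of the lncRNA start nearest the region's centre. GC content had a median of 51.8%, between the 48.3% of all 11574 lncRNA windows and the 56.7% of 21045 protein-coding windows. It was 54.7% where the region had a peak in all 18 libraries and 50.7% elsewhere. Of these 180 windows, 25 (13.9%) held an ETS match (ACAGGAAG), against 4.22% of all lncRNA windows and 3.60% of all 32619 windows. RUNX matches stood in 15 (8.33%, against 2.11% and 1.79%) and CTCF matches in 16 (8.89%, against 2.58% and 2.44%). KLF/SP matches stood in 34 (18.9%), against 7.92% of lncRNA windows and 17.1% of all windows. AP-1 matches (TGANTCA) stood in 21 (11.7%, against 9.31% and 7.85%) and CRE matches (TGACGTCA) in 5 (2.78%, against 0.976% and 1.80%). NF-kB matches (GGGANTTCC) stood in 4 (2.22%, against 1.38% and 1.69%) and an EGR match in 1 (0.556%, against 0.216% and 0.616%). TCF7/LEF1 (CTTTGATC or CTTTGAAG), NR4A (AAAGGTCA) and GATA (AGATAAGA) matches stood in 3 windows each (1.67%), against 2.95%, 1.88% and 1.23% of lncRNA windows and 2.56%, 1.52% and 0.999% of all windows. A region can hold windows of more than 1 lncRNA, so these shares describe the windows counted, not whole regions, and were not tested. The 180 windows were taken at starts inside peaks, but the comparison windows with or without a peak. The shares therefore do not set members apart from other open starts. At the region with the Gm30771 and Gm30684 starts the Gm30684 window was counted, so the CTCF match of Gm30771 is not among the 16.

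The regions as a class were narrow, weak and shared by few libraries. Their median width was 359 bp (161 to 1625 bp) and their median distance to a gene end was 28274.5 bp. A peak was present in all 18 libraries at 733 regions (13%), in exactly 1 library at 1351 (23.9%) and in 2 to 17 at the remaining 3568, with a median of 5 libraries. Regions within 1 kb of a gene end, where most promoters lie, had a peak in all 18 libraries in 55.6% of 10097 cases, and their median width was 647 bp. Regions inside a gene more than 10 kb from its ends (8170, 12.3% in all 18) and regions outside genes beyond 100 kb (1582, 11.9%) were like the members in this respect, as the plot of libraries per region shows. Signal was ranked within each library by the -log10 p that the authors' peak caller gave each peak, and the mean percentile of a member over its libraries had a median of 22.8, against 52.3 at gene ends and 22.9 inside genes. Even among regions present in every library the median percentile of members, 60.8, was below the 76.2 of gene ends.

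**Figure D1:**
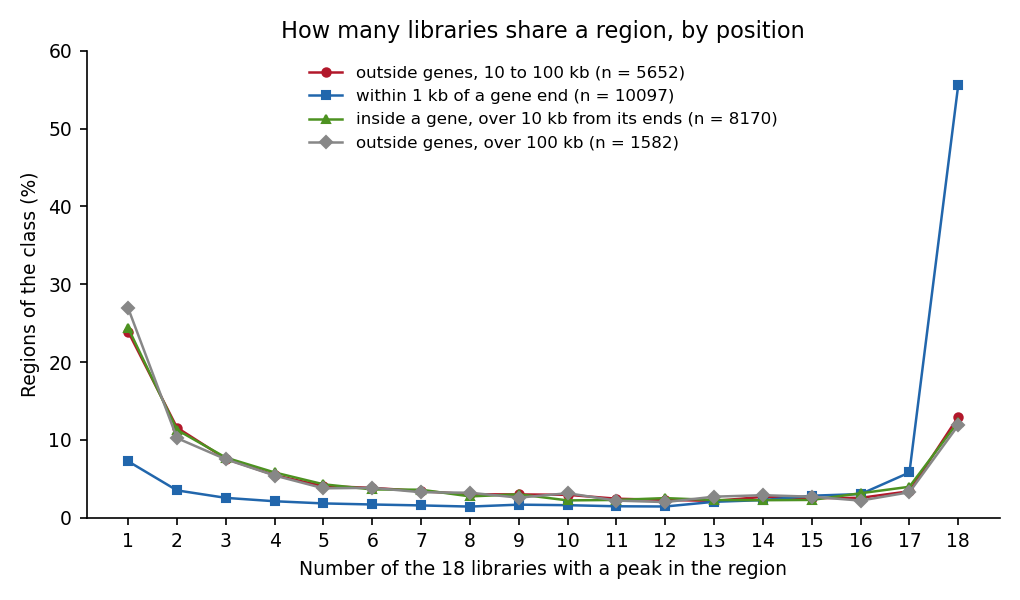
Share of regions (%) in each class of position, by the number of the 18 libraries that had a peak in the region. Members (red) follow the classes inside genes and beyond 100 kb, with 23.9% in 1 library and 13% in all 18, while 55.6% of regions near gene ends were in all 18.

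Distance within the window made little difference. Of the members, 1892 (33.5%) lay 10 to 20 kb from a gene end and 12.3% of those were in all 18 libraries. The share was 12.7% of 1091 regions at 20 to 30 kb, 13.4% of 1321 at 30 to 50 kb and 13.6% of 1348 at 50 to 100 kb. Just inside the lower bound, 120 members at 10 to 10.5 kb had a median of 4 libraries, and 109 regions just outside it at 9.5 to 10 kb had a median of 5. At the upper bound the 22 members at 99 to 100 kb and the 17 regions at 100 to 101 kb both had a median of 6. Members made up 22.0% of all regions on chromosome 3 and 21.8% on chromosome 1, the highest shares, and 12.8% on chromosome 11 and 12.9% on chromosome 8, the lowest. The median gap to the next member was 41863.5 bp, and 751 of 5632 gaps (13.3%) were under 5 kb. A lncRNA gene covered the centre of 1244 members (22.0%).

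The strongest members ranked among the strongest peaks of every library. The region nearest Zfp324, a zinc finger gene, at chr7:12949311-12950025 had a mean percentile of 99.1 and an enrichment over local background, as the authors' peak caller gave it, of 18.5 ± 2.08-fold (SD, n = 18). It was followed by chr10:68673378-68674085 nearest Tmem26 (98.9), chr15:101315706-101316429 nearest Smim41 (98.7) and chr17:21370079-21370744 nearest Zfp677 (98.1). The region nearest Usp46 (96.4), a gene for a deubiquitinating enzyme, contained the whole start window of Dancr. Of the 12 strongest, those nearest Zfp324, Nlrp4f, Usp46 and Cct8l1 held a lncRNA start. The widest members were not the strongest, since the 1625 bp region nearest Bcat1, at chr6:144901917-144903541, had a mean percentile of 60.2, and the 1474 bp region nearest Lrrc63 had 27.9 and a peak in 15 libraries.

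Members gathered around some genes. Of 21631 protein-coding genes, 2922 were nearest to at least 1 member, 1674 of them to exactly 1, and the 214 genes with 5 or more held 23.6% of all members. Several of the 10 genes with the most members are known in T cells. Btg1, which holds back proliferation and supports quiescence, had 16, with 8 on each side over a span of 202216 bp, and 3 of them were in all 18 libraries. S1pr1, the receptor that lets T cells leave lymph nodes, had 14, of which the 1 at chr3:115682517-115683181 was in all 18 libraries with a mean percentile of 91.5. Fasl, a death-inducing ligand of activated T cells, had 13, and 12 of these lay at lower coordinates than the gene.

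Prkcq, the protein kinase C that relays TCR signals, had 12, and its region at chr2:11338854-11339864, 1011 bp wide, held the start of the lncRNA Gm13293. The immediate early gene Ier5 had 11, all at lower coordinates, with 3 in all 18 libraries, among them chr1:155083208-155083756 with the start of Gm9530. Ets2, an ETS factor, had 12 and Gm52008 had 16, and none of either was in all 18 libraries. Bach1, Chd2 and Glrp1 had 10 each, of which 1, 3 and 0 were in all 18. The plot of regions around genes gives positions and numbers of libraries for 6 of these 10 genes.

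**Figure D2:**
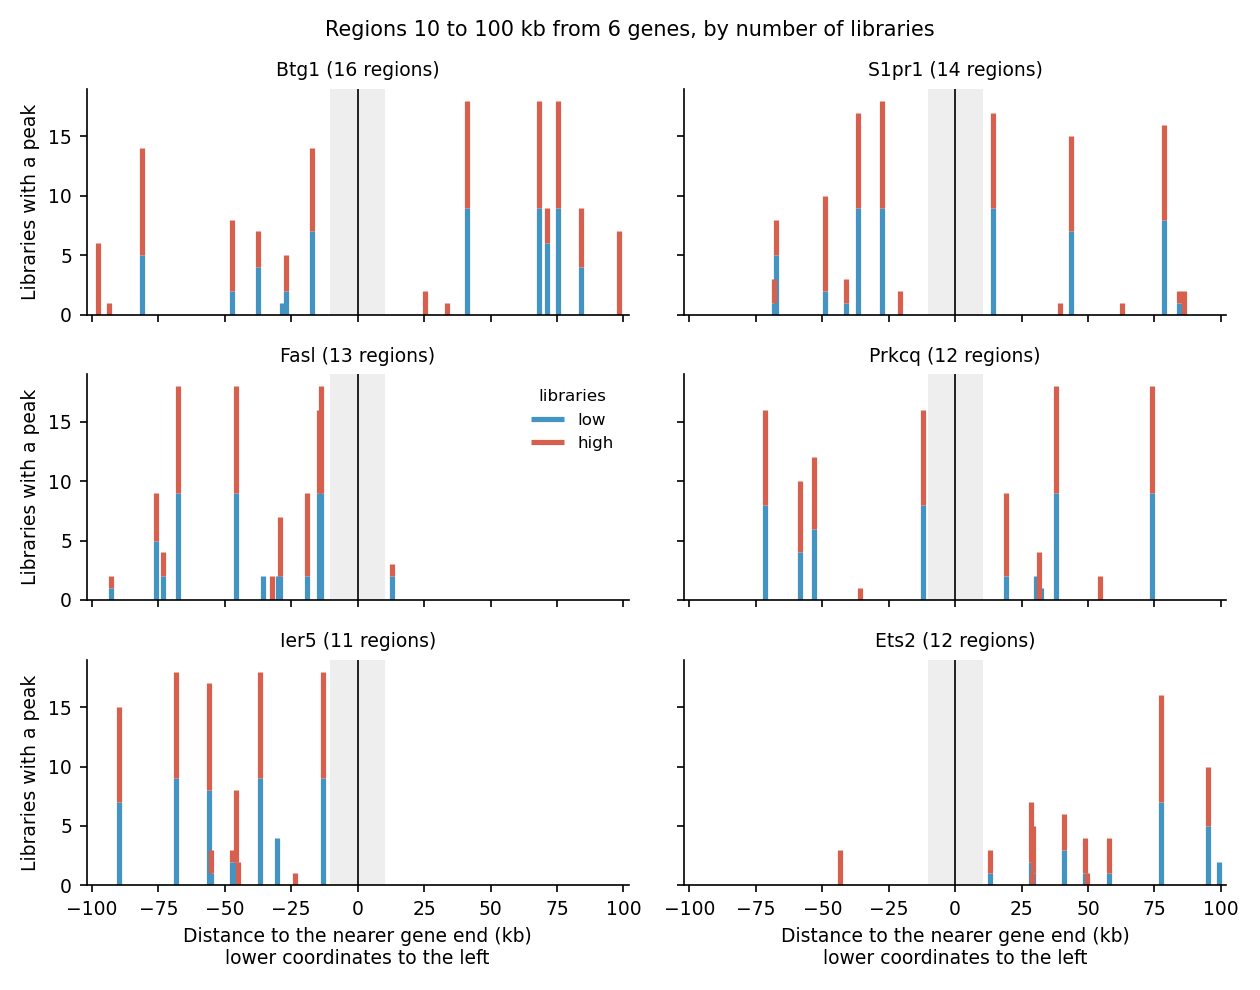
Members around 6 of the 10 genes with the most members, at their distance from the nearer gene end (kb, lower coordinates to the left), with bar height giving the number of libraries with a peak, split into low (blue) and high (red) libraries. Grey marks the 10 kb on either side that the rule leaves out. Btg1 has 3 bars that reach 18, and S1pr1 has 1.

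Members were also counted over gene lists of T cell biology. The 10 lists together named 362 genes, with 476 members nearest to them, 60 of which were in all 18 libraries (12.6%, against 13% of all members). The naive T cell transcription factors (55 genes) had 129 members at 38 genes, 11 of them in all 18 libraries. TCR signal and activation genes (45) had 99 members, 14 in all 18, and negative regulators of the TCR (42) had 56, with 10 in all 18. Cytokines and their receptors (46 genes) had 50 members and 5 in all 18, survival and quiescence genes (28) had 42 and 7, and homing and migration genes (35) had 40 and 6. The list of AP-1 subunits with NFAT, NF-kB and IRF proteins (27 genes) had 28 members and 6 in all 18, and retinoic acid and TGF-beta genes (31) had 20 and 1. Interferon response genes (33) had 6 members, none in all 18, and housekeeping genes (24) had 9 with 1 in all 18.

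Defining markers of the labelled cell type and of others were checked by regions centred in the gene or within 1 kb of it, which leaves out members by their position. All 14 naive CD4 T cell markers had such a region, and 6 had 1 in all 18 libraries. Such a region in all 18 libraries stood at 1 of 11 B cell markers, 1 of 5 CD8 T cell, 1 of 7 dendritic and 1 of 7 erythroid markers, and at none of 7 NK, 10 myeloid or 10 stromal markers. No such region was found at 6 B cell, 6 myeloid, 6 stromal, 4 erythroid, 3 NK, 3 dendritic and 1 CD8 T cell markers. Farther out, 23 members were nearest to naive CD4 T cell markers, 5 of them in all 18 libraries. The members nearest to markers of other cells numbered 0 for B cells, 4 for CD8 T cells, 2 for NK cells, 11 for myeloid, 1 for dendritic, 1 for erythroid and 2 for stromal cells, with 1 in all 18 libraries for NK and 1 for stromal cells.

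The libraries differed in depth, which bears on every count of peaks. The read number at each peak summit and in the 10 kb around it was recovered from the deposited fold and -log10 p columns. The average background of a library was 8.48 to 16.6 reads per 10 kb, and libraries held 14372 to 23129 peaks. The 3 mesenteric high libraries were deepest and had the longest lists. The fragment length of the peak caller was taken as the width of a library's narrowest peak. With it, local reads above the library average came out as whole numbers. It was 161 to 176 bp in 12 libraries and 216 to 236 bp in 6, namely all axillary libraries except high replicate 2, plus spleen low replicate 3. These lengths and the organs cannot be told apart for most axillary libraries.

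The share of a library's regions that were members ranged from 12% to 15%. It was 14.9% ± 0.0983 (SD, n = 3) in mesenteric high libraries, and in none of the other groups was the mean above the 13.3% ± 0.177 of spleen high. Mesenteric low libraries had 12.9% ± 0.0306, spleen low 13% ± 0.679, axillary low 12.3% ± 0.430 and axillary high 12.7% ± 0.0675. High libraries averaged 0.888 percentage points more than low libraries (13.6% ± 0.980 against 12.8% ± 0.533, n = 9 each), and the ranges of the 2 sets overlapped. When every list was trimmed to the same length by rank, the shares ran from 11.5% to 12.4% and the difference was -0.0142 percentage points. For equal depth, summit and local reads were thinned at random to the depth of the shallowest library. Peaks with a recomputed -log10 p of at least 5 were kept. The difference between high and low libraries was then 0.475 percentage points. Mesenteric high libraries had 13.6% ± 0.0903 at equal depth, and the next group, axillary high, had 12.6% ± 0.0808. The median percentile of member peaks within a library was 36.2 on average over the libraries and ranged from 34.1 to 38.2.

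**Figure D3:**
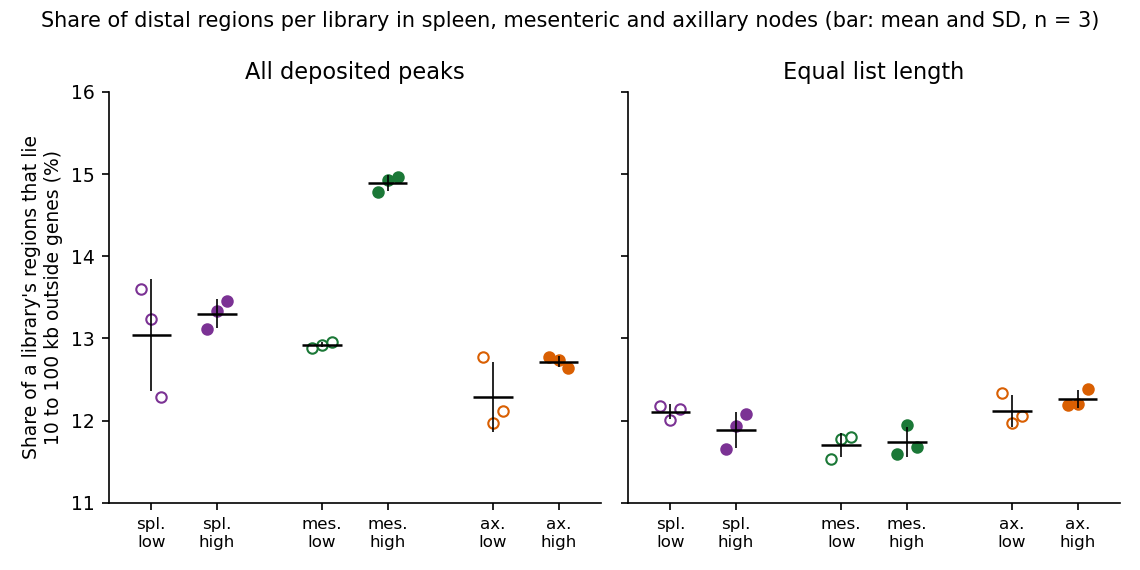
Share (%) of each library's regions that are members, in spleen (spl.), mesenteric (mes.) and axillary (ax.) nodes, with points for libraries and bars for mean and SD (n = 3), for all deposited peaks (left) and lists of equal length (right). The mesenteric high libraries stand at 14.9% on the left and between 11.5% and 12.4% with the rest on the right; the vertical axis does not start at 0.

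Reads at the summit were compared between high and low cells at the 8756 regions with a peak in every library, 733 of them members, so these results say nothing of members found in fewer libraries. Reads were scaled to a common median over these regions and tested on the log2 scale with limma over all 8756. Of the members, 11 (1.50%) were higher in high than in low cells averaged over the organs and 0 were lower at adjusted p below 0.05. Over all regions 0.423% were called higher and 0.0799% lower. By class, 10 of 5614 regions at gene ends, 7 of 1008 inside genes and 1 of 188 beyond 100 kb were higher. At unadjusted p below 0.05, 67 members were higher and 53 lower. The share of all regions at that threshold is not given here, so these counts do not set members apart. The median log2 difference was -0.01 for members and -0.02 for all regions. The 11 differences were 0.43 to 0.71 on the log2 scale, and in the plot of called members by library the high libraries lie above the low ones on average in every organ.

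**Figure D4:**
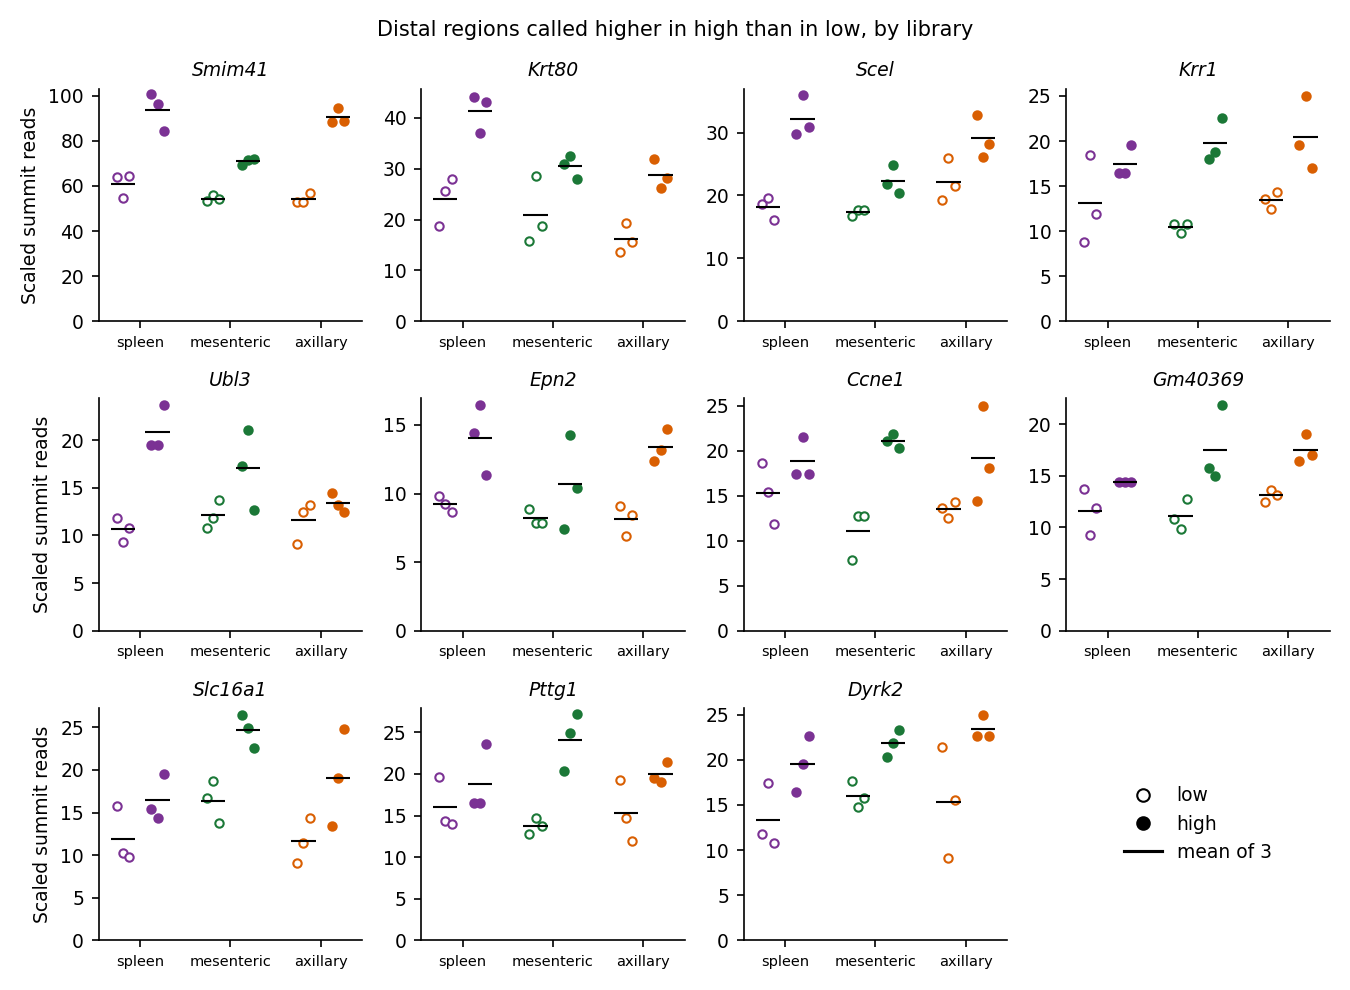
Scaled summit reads (linear axis from 0) in each library for the 11 members called higher in high than in low cells, named by the nearest gene, with open points for low, filled points for high and a line for the mean of 3. At Smim41 and Gm40369 all 9 high libraries lie above all 9 low libraries; at Slc16a1 and Pttg1 the groups overlap in spleen and axillary nodes.

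The largest read numbers of the 11 were at chr15:101315706-101316429 nearest Smim41, a small membrane protein gene. Its scaled reads were 63.9, 54.4 and 64.5 in spleen low and 100.6, 96.5 and 84.2 in spleen high, 53.1, 56.1 and 54.1 in mesenteric low and 69.1, 71.3 and 72.1 in mesenteric high, and 53.0, 53.0 and 56.8 in axillary low and 88.3, 94.6 and 88.9 in axillary high. Every high library was above every low library (log2 difference 0.57, SE 0.075, limma adjusted p = 0.000152). The neighbouring region chr15:101327181-101327692, nearest the keratin gene Krt80, had 18.7, 25.7 and 28.0 in spleen low, 44.2, 37.0 and 43.1 in spleen high, 15.7, 28.5 and 18.7 in mesenteric low, 31.0, 32.5 and 27.9 in mesenteric high, 13.6, 19.2 and 15.5 in axillary low, and 31.8, 26.1 and 28.2 in axillary high. High and low libraries overlapped only in mesenteric nodes (0.71, SE 0.109, limma adjusted p = 0.0011).

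Both of these regions lie in the neighbourhood of Nr4a1, the gene whose reporter was used for the sort. The background around the peaks was raised in 22 successive regions at chr15:101210096-101362896, a run set by a cut of 10 times the library average. Of these regions 11 had a peak in all 18 libraries. Their median background was 58.5 to 74.5 times the library average in high libraries. In low libraries it was 40.8 to 46.4 times, and the ratio of means was 1.52. The stretch holds 4 members, 2 of them in all 18 libraries. Without it 7 members were called, an alternative chosen after the data were seen. What raised the reads around Nr4a1 was not tested.

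The third member by p-value was chr14:103469214-103470036, nearest Scel, a gene of the cornified cell envelope. Its scaled reads were 18.7, 19.5 and 16.2 in spleen low against 29.8, 35.9 and 30.8 in spleen high, 16.7, 17.7 and 17.7 against 21.8, 24.9 and 20.3 in mesenteric nodes, and 19.2, 26.0 and 21.4 against 32.9, 26.1 and 28.2 in axillary nodes. Within each organ the 3 high libraries were above the 3 low ones (0.51, SE 0.085, limma adjusted p = 0.0037). On chromosome 14 as a whole the median log2 difference was 0.11 over 368 regions, while medians of the other chromosomes lay between -0.05 and 0.03. The 38 members there had a median of 0.10, against -0.08 to 0.08 for the members of the other chromosomes. The region's part in that shift was not tested.

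The region that holds the Gm30771 and Gm30684 starts, chr7:38061035-38061659, lies 36637 bp from Ccne1, the gene of the G1 cyclin E1. Its scaled reads were 18.7, 15.4 and 11.9 in spleen low, 17.5, 21.6 and 17.5 in spleen high, 7.9, 12.8 and 12.8 in mesenteric low, 21.1, 21.8 and 20.3 in mesenteric high, 13.6, 12.5 and 14.3 in axillary low, and 14.4, 25 and 18.1 in axillary high. The groups overlapped in spleen and not in either lymph node (0.55, SE 0.113, limma adjusted p = 0.0214). It is the only one of the 11 called members with a lncRNA start inside.

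At chr10:111924111-111924565, nearest the ribosome assembly gene Krr1, scaled reads in high libraries ran from 16.4 to 25 (median 18.8) and in low libraries from 8.84 to 18.5 (median 11.9), with limma adjusted p = 0.00618. Chr5:148489229-148489776, nearest the ubiquitin-like gene Ubl3, had 12.5 to 23.6 in high (median 17.3) and 9.12 to 13.8 in low libraries (median 11.8), and all 3 spleen high libraries were above the spleen low ones. At chr6:47636418-47636981, nearest Gm40369, all 9 high libraries (14.4 to 21.8) were above all 9 low libraries (9.26 to 13.8).

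The remaining 4 were chr11:61602692-61603165 nearest the endocytic adaptor Epn2 (log2 difference 0.50), chr3:104616056-104616580 nearest the monocarboxylate transporter Slc16a1 (0.56), chr11:43388166-43388767 nearest the securin gene Pttg1 (0.46) and chr10:118765737-118766448 nearest the kinase gene Dyrk2 (0.54). Calls at Smim41, Krt80, Scel, Krr1 and Ubl3 held in all 18 fits that each left out 1 library. Those at Ccne1 and Epn2 held in 17, at Gm40369 in 10, at Slc16a1 in 9, at Pttg1 in 5 and at Dyrk2 in 3. Reads in the 10 kb around the peak, which include the peak, were also higher in high cells at all 11, by 0.29 to 0.94 on the log2 scale. Without spleen high replicate 2, 7 members were called.

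Within single organs few members were called. In spleen, Scel (log2 0.79, limma adjusted p = 0.0271) and Ubl3 (0.91, limma adjusted p = 0.0288) were higher in high cells, as were 0.0457% of all regions. In mesenteric nodes chr14:48421837-48422546, nearest the membrane protein gene Tmem260, had 5.9, 6.9 and 13.8 scaled reads in low and 18, 21.1 and 21.1 in high libraries (1.18, limma adjusted p = 0.0476, with 0.0457% of all regions called higher). In axillary nodes Smim41 was called (0.73, limma adjusted p = 0.021, with 0.0799% of all regions called higher). Leaving out any 1 spleen library ended both spleen calls and leaving out any 1 axillary library ended the axillary one, while the mesenteric call was lost without any of 12 single libraries, among them mesenteric low replicates 1 and 2 and all 3 mesenteric high replicates. The difference between high and low cells was itself compared between organs with limma interaction terms, and 0 members were called in each of the 3 pairs of organs. At adjusted p below 0.05, 0.0914%, 0 and 0 of all regions were called for spleen against mesenteric, spleen against axillary and mesenteric against axillary nodes. In the same order, 83, 49 and 73 members had an unadjusted p below 0.05. These counts cannot be set against those shares, and the share of all regions at that threshold is not given here.

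Members present in some libraries only were compared by whether a peak was there. Of the 1189 members tested with Fisher's exact test (two-sided, 9 high against 9 low libraries, peak in 6 to 12 libraries), 0 passed after adjustment over the 5737 regions tested. At unadjusted p below 0.05, 76 (6.39%) had a peak in more high libraries and 3 in more low libraries, against 5.84% and 0.261% of all regions tested, so members stood near the background. With lists of equal length the numbers were 16 and 19. At equal depth they were 45 and 9 (4.34% and 0.867%, against 3.82% and 0.722% of all regions tested). The smallest adjusted p, 0.118 by Fisher's exact test, belonged to chr2:37765032-37765478 nearest the cell polarity gene Crb2, where all 9 high libraries and 0 of the low ones had a peak (5 and 0 with lists of equal length).

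Among the genes of the lists, chr16:45346775-45347282 near Cd200, whose product engages an inhibitory receptor on myeloid cells, was open in 8 libraries of high cells and 0 of low cells (4 and 0 with equal lists). Chr10:18964796-18965151 near Tnfaip3, the A20 inhibitor of NF-kB signals, had 7 and 0 (4 and 0), and chr10:39315393-39315939 near Fyn, a Src family kinase of TCR signalling, had 8 and 1 (4 and 1). Near Btg1, chr10:96721051-96721416 had 7 and 0 (5 and 0) and chr10:96519201-96519597 had 6 and 0 (2 and 0). Other regions with many high libraries were those nearest Sbk1, Zmiz1 and Pdhx (9 and 1 each) and Slc4a1ap (9 and 2). In the other direction stood the region nearest Stt3b, an oligosaccharyltransferase subunit, with a peak in 3 libraries of high and 9 of low cells (3 and 8 with equal lists). Its unadjusted p was 0.00905 by Fisher's exact test. The regions nearest Dse (3 and 8) and 4921504E06Rik (1 and 6) followed.

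Over the lists, members at unadjusted p below 0.05 with more high libraries numbered 3 of 26 tested for TCR signal and activation, 2 of 10 for negative regulators, 2 of 18 for cytokines and receptors, 3 of 8 for homing and migration, 3 of 11 for survival and quiescence, and 0 for the other 5 lists, against 5.84% of all regions tested. With equal lists these regions had a peak in 2 to 5 high and 0 to 3 low libraries. Peaks in 3 of 3 high and 0 of 3 low libraries of an organ were found at 217 members in mesenteric nodes, with 2 the other way round. These were 3.84% and 0.0354% of members, against 3.14% and 0.0544% of all regions. With equal lists the mesenteric numbers were 31 and 26 (0.548% and 0.46% of members, 0.519% and 0.39% of all regions). At equal depth they were 85 and 11 (1.50% and 0.195% of members, 1.33% and 0.178% of all regions). In spleen the full lists gave 37 and 29 (0.655% and 0.513% of members, 0.619% and 0.29% of all regions). Equal lists gave 18 and 33 (0.318% and 0.584% of members, 0.323% and 0.365% of all regions), which turned the direction. Equal depth gave 25 and 39 (0.442% and 0.690% of members, 0.474% and 0.405% of all regions). In axillary nodes the full lists gave 47 and 5 (0.832% and 0.0885% of members, 0.568% and 0.217% of all regions). Equal lists gave 24 and 12 (0.425% and 0.212% of members, 0.353% and 0.341% of all regions). Equal depth gave 42 and 7 (0.743% and 0.124% of members, 0.504% and 0.245% of all regions).

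Between organs, members were more often higher in axillary than in spleen or mesenteric cells, and the 2 comparisons share the axillary libraries. Of the 733 members in all libraries, 47 (6.41%) were higher in axillary than in spleen cells and 8 were lower, against 2.27% and 2.1% of all regions. Between mesenteric and axillary cells, 75 (10.2%) were higher in axillary and 7 in mesenteric cells, against 4.26% and 2.54%. Between spleen and mesenteric cells only 2 members were called, 1 higher in each organ, against 0.251% of all regions higher in spleen and 0.24% in mesenteric cells. The groups of 6 libraries did not overlap at 13 of the 47 and at 25 of the 75. Such regions were not counted over the whole series, so these counts do not set members apart. The called differences were 0.36 to 0.72 and 0.33 to 0.72 on the log2 scale.

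The other classes away from gene ends had medians on the same side, as the plot of class medians shows. The median log2 difference of spleen minus axillary was -0.09 for members, -0.11 inside genes, -0.15 beyond 100 kb and 0.04 at gene ends. That of mesenteric minus axillary was -0.12, -0.13, -0.22 and 0.03. Regions at gene ends were called higher in axillary than in spleen cells in 24 of 5614 cases, those inside genes in 72 of 1008 and those beyond 100 kb in 16 of 188. The scaling sets these directions in part. With reads scaled to the genome-wide background, which moved the median of all regions by 0.18 for mesenteric minus axillary, 57 members were higher in mesenteric and 19 in axillary cells. The same scaling moved the median of spleen minus mesenteric to -0.21, with 121 members higher in mesenteric cells and 1 in spleen, but left 46 higher in axillary than in spleen cells. The share of all regions called under this scaling is not given here, so these counts do not set members apart.

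Fragment length moved with the organ. With the fragment class of the library as a term, chosen after seeing the data, 5 members were higher in axillary than in spleen cells and 1 lower, none was called between mesenteric and axillary cells, and the median differences of members were -0.12 and -0.14. The calls at all 12 named members of each of these comparisons were lost under that term. Member levels relative to all shared regions lay between -0.22 and -0.30 (log2) in axillary, between -0.28 and -0.44 in spleen, at -0.42 in the mesenteric low and at -0.31 in the mesenteric high libraries. Axillary high replicate 2, with a fragment length of 176 bp, had -0.23, and spleen low replicate 3, with 233 bp, had -0.37. Without spleen high replicate 1, 28 members were called higher in axillary than in spleen cells, and without axillary low replicate 1 or axillary high replicate 3, 31. Against mesenteric cells the count was 43 without axillary high replicate 3 and 49 without mesenteric low replicate 3 or mesenteric high replicate 2. For the fragment term and the left-out libraries the share of all regions called is not given here. The changes in these counts are therefore not particular to members.

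**Figure D5:**
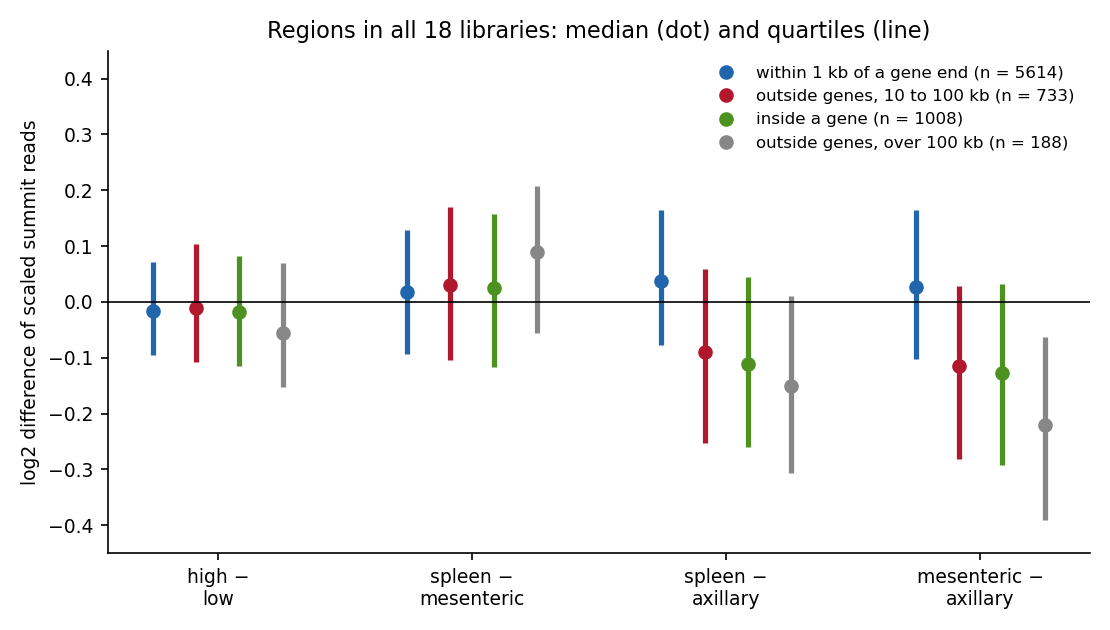
Median (dot) and quartiles (line) of the log2 difference in scaled summit reads for each comparison, at regions with a peak in all 18 libraries, by class of position. Members (red) have medians near 0 for high minus low (-0.01), and of -0.09 and -0.12 for spleen and mesenteric minus axillary, while regions near gene ends have 0.04 and 0.03.

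The member nearest Gpr174, a receptor for lysophosphatidylserine on lymphocytes, at chrX:107325567-107326453, was among the clearest. Its scaled reads were 18.5 to 26.9 (median 21.6) in the 6 spleen libraries, 17.7 to 22.6 (20.4) in the 6 mesenteric and 29.4 to 38.0 (32.4) in the 6 axillary libraries. The axillary libraries overlapped with neither (log2 -0.61 for spleen and -0.70 for mesenteric minus axillary, limma adjusted p = 0.0065 and 0.00162). The member nearest the sodium-proton exchanger gene Slc9a9, at chr9:95314942-95315633, had 17.5 to 24.6 in spleen, 19.7 to 29.5 in mesenteric and 31.6 to 34.4 in axillary libraries, again with no overlap.

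Near Il6st, which encodes the gp130 subunit of the IL-6 receptor family, chr13:112424431-112425103 had 12.3 to 19.5 in spleen, 15.8 to 21.8 in mesenteric and 21.5 to 37.2 in axillary libraries (-0.72 and -0.56, limma adjusted p = 0.0065 and 0.0144). The region with the Gm51814 start, chr10:19061972-19062921, lies 47036 bp from Tnfaip3. It had 29.0 to 41.3 in spleen (median 33.9), 29.5 to 41.6 in mesenteric (35.7) and 43.9 to 50.9 in axillary libraries (49.0), with no overlap in either comparison (-0.47 and -0.43, limma adjusted p = 0.0145 and 0.0149). The region with the Gm13982 start, chr2:117417222-117417840, lies 74654 bp from Rasgrp1, which activates Ras after TCR signals. It had 12.3 to 21.6 in spleen, 12.7 to 16.7 in mesenteric and 20.4 to 26.1 in axillary libraries (-0.59 and -0.66, limma adjusted p = 0.0145 and 0.00553) and was named after its values were seen.

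Of the 60 members of the 10 lists that were tested, 8 were higher in axillary than in spleen cells and 0 lower, against 6.41% of all members and 2.27% of all regions higher. Against mesenteric cells 6 of the 60 were higher in axillary and 1 lower, near the 10.2% of all members that were higher, with 4.26% of all regions. By list, the homing and migration members had medians of -0.44 (spleen minus axillary) and -0.42 (mesenteric minus axillary) over 6 members, against -0.09 and -0.12 for all members, and this list was singled out after its values were seen. Near Cxcr4, the CXCL12 receptor, chr1:128611803-128612200 had medians of 19.6 in spleen, 22.6 in mesenteric and 32.9 in axillary libraries (-0.68 and -0.46, limma adjusted p = 0.00901 and 0.0426), and chr1:128614657-128615313 was called against spleen (-0.56) but not mesenteric cells (-0.40). Near Ccr7, which guides naive T cells into lymph nodes, chr11:99170673-99171326 had medians of 17.5, 24.4 and 29.7 (-0.69 for spleen minus axillary, limma adjusted p = 0.0329). Near the gut-homing receptor Ccr9, chr9:123754326-123754812 had 20.0, 18.2 and 24.9 (-0.44 for mesenteric minus axillary, limma adjusted p = 0.05 after rounding).

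The naive T cell factor Tcf7 had a member at chr11:52313909-52314637 with medians of 17.9, 21.7 and 24.9 in spleen, mesenteric and axillary libraries (-0.54 for spleen minus axillary, limma adjusted p = 0.0116). The Btg1 member at chr10:96690791-96691312 had 18.1, 20.8 and 26.5 (-0.54 for spleen minus axillary, limma adjusted p = 0.0135). Near Fos, an AP-1 subunit, chr12:85446932-85447565 had 15.9, 17.7 and 21.4 (-0.45 for spleen minus axillary). Near Cblb, a ubiquitin ligase that restrains the TCR, chr16:52006940-52007540 had 26.1, 22.5 and 33.3 (-0.48 for mesenteric minus axillary, limma adjusted p = 0.0157), and near Ptprc, which encodes CD45, chr1:138191599-138192304 had 21.6, 17 and 25.8 (-0.47 for mesenteric minus axillary). The Foxo1 member at chr3:52197913-52198591, near the gene of a factor that maintains naive cells, was the exception among the lists, with 16.8, 24.5 and 19.2 and a mesenteric minus axillary difference of 0.44 (limma adjusted p = 0.0372).

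Fewer members were lower in axillary cells. Near Tiam2, an activator of Rac, chr17:3314080-3314651 had 16.4 to 28.8 in spleen, 18 to 23.4 in mesenteric and 13.2 to 20.2 in axillary libraries (0.57 and 0.43). The region with the 1700064M15Rik start, chr12:99627701-99628317 nearest Efcab11, had medians of 19.5, 24.6 and 17.9 (0.46 for mesenteric minus axillary, limma adjusted p = 0.0167). The members called between spleen and mesenteric cells were chr6:124375447-124375977 nearest the peroxisomal import receptor gene Pex5, with medians of 27.7 and 15.4 (0.64, SE 0.125, limma adjusted p = 0.0338), and chr11:96996280-96996771 nearest the transcription factor gene Sp2, with 10.8 and 17.7 (-0.61, SE 0.134, limma adjusted p = 0.0435). Both counts rest on single libraries: 0 were called without any 1 of spleen low replicate 3, spleen high replicates 2 and 3, mesenteric low replicate 2 and mesenteric high replicates 1 and 2.

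By presence of a peak in the 6 libraries of each organ, 148 of 1542 members tested (9.60%) had an unadjusted p below 0.05 in the Fisher-Freeman-Halton exact test, against 11.2% of 7630 regions, where a peak in 5 to 13 libraries was required, and 0 passed after adjustment (smallest adjusted p 0.0881). Mesenteric libraries had the most peaks at 104 of the 148, and axillary libraries the fewest at 87. With lists of equal length 69 had an unadjusted p below 0.05. The most peaks were then in mesenteric libraries at 17, in spleen at 20 and in axillary at 20, and the fewest, in the same order, at 22, 16 and 19. At equal depth 85 had such a p (6.08%, against 6.43% of all regions tested). The most peaks were then in mesenteric libraries at 56, in spleen at 13 and in axillary at 8. Members nearest Cenpe (a centromere motor protein) and Pttg1ip2 had a peak in 6 spleen libraries and 0 others. Near Cd69, which retains lymphocytes in tissue, chr6:129232899-129233159 had a peak in 6 spleen, 1 mesenteric and 0 axillary libraries, and the same numbers with equal lists. Members nearest Kcna3 (the Kv1.3 potassium channel), Fam102a and Ccdc66 had a peak in 6 mesenteric libraries and 0 others, but in 4, 3 and 1 mesenteric libraries with equal lists. Near Ubash3b, a phosphatase that restrains the TCR, chr9:41181354-41181779 had 0 spleen, 6 mesenteric and 2 axillary libraries. A member nearest Pdhx had a peak in 0 spleen, 5 mesenteric and 6 axillary libraries.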

How the data were processed

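The deposited files are narrowPeak lists, 1 per library, on mm10 per the submitters' processing notes, which name Trimmomatic 0.33, Bowtie2, bedtools and MACS. What options the aligner and caller ran with is not stated in the labels or headers. The authors' columns hold peak positions, a score, a signal column that is the fold enrichment (a ratio) at the summit over the local background, and -log10 p and -log10 q values. Of 314829 deposited peaks, 404 on other sequences were left out. For the peaks used, fold and -log10 p were solved for a whole read number at the summit and the local background, with a Poisson p and 1 added to both terms of the fold. Exactly 1 solution met the -log10 p within 0.002 at 99.3% of the peaks, and elsewhere the closest was taken. Depth is therefore known as 8.48 to 16.6 background reads per 10 kb, and counting error limits single summits, whose library medians over shared regions were 19 to 30 reads.

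Peaks were merged and ranked by -log10 p in Python 3.11.15 (numpy 2.4.6, pandas 2.3.3, scipy 1.17.1, matplotlib 3.10.9). Reads were divided by the library's median over shared regions, put on the log2 scale, and tested with limma 3.58.1 (R 4.3.3) over all 8756 shared regions, with 6 groups and no covariate and with Benjamini-Hochberg adjustment. Scaled reads are given at an average of 22.6. Presence was tested with Fisher's exact and the Fisher-Freeman-Halton exact test. The steps were tested on simulated data. Members, gene lists and tests were chosen with earlier results of these data known. Named regions are those with the smallest p per comparison and direction, the strongest 12, the widest 5, the 10 genes with most members and members at list genes. Replicate numbers were not used as pairs in the main tests, and whether they pair the libraries is not known. Motifs were searched only in lncRNA start windows, since other sequence was not used here.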

Additional observations from a re-analysis of the deposited data

How the results depend on the processing

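The values come from peaks only, so reads exist where a library had a peak, and members in fewer than 18 libraries were tested by presence alone. Presence counts changed both with equal lists and with equal depth. At equal depth the mesenteric high libraries still held 18539 to 18707 regions, and the cause of list length was not tested. Nearest genes stand for position only.

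The 11 members higher in high cells became 8 with background scaling, 9 with loess scaling, 2 with the deposited fold, 18 (15 higher, 3 lower) with peaks in at least 15 libraries, 1 with a mean of at least 30 reads, 5, 4 and 4 without spleen, mesenteric or axillary libraries, 6 with fragment class, 7 without the Nr4a1 stretch, and 7 to 12 without single libraries. The 2 spleen calls became 1 with at least 30 reads and 0 with the fold, 15 libraries, only the groups compared, fragment class or short-fragment libraries (0 to 2 without single libraries). The mesenteric call (1) became 0 with either scaling or the fold, and 2 with 15 libraries, fragment class or short-fragment libraries (0 to 2). The axillary call (1) became 0 with background scaling, the fold or only the groups compared (0 to 1).

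The 2 calls between spleen and mesenteric cells became 122 with background scaling, 0 with the fold or 30 reads, and 4 with only the groups compared (0 to 3). Members higher in axillary than spleen cells (47) became 4 with the fold, 7 with 30 reads, 31 with only the groups compared and 5 with fragment class (28 to 44), and those lower (8) became 3 with background scaling, 0 with the fold, 1 with 30 reads, 5 with only the groups compared and 1 with fragment class (2 to 9). Higher in axillary than mesenteric cells (75) became 19 with background scaling, 10 with the fold, 17 with 30 reads and 0 with fragment class (43 to 78), and lower (7) became 57, 12 with 15 libraries, 3 with 30 reads and 0 with fragment class (3 to 9). Interactions stayed at 0 called in every alternative run. No single named member reversed, and the cause of the changes was not tested. Alternatives with fragment class, short-fragment libraries and without the Nr4a1 stretch were chosen after seeing the data. The read counts under the alternatives are of members, without the shares of all regions called.

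Unadjusted presence counts of 76 and 3 became 16 and 19 with equal lists, 45 and 9 with equal depth, and 24 and 1 at -log10 q of at least 10 (77 to 126 and 3 to 9 without single libraries, 126 without axillary high replicate 3). Organ presence (148) became 69, 85 and 59 (181 to 267 without single libraries, a rise whose cause was not tested). The share difference of 0.888 became -0.0142 and 0.475 (0.722 to 1.01). The median percentile within a library, 36.2 on average, became 35.1 with equal lists and 33.6 at -log10 q of at least 10 (36.0 to 36.3).

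Same-numbered low and high libraries of an organ had correlations of -0.012 to 0.018, and differently numbered ones -0.032 to 0.030. Counting error limits single summits, so these values cannot decide whether the numbers pair libraries. With a replicate block 7 members were called higher in high cells, 0 in spleen, 0 in axillary, 1 between spleen and mesenteric, 39 and 6 for axillary against spleen, 65 and 7 for axillary against mesenteric, and presence counts were 36 and 1.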
